A study of Homo sapiens with 2 samples.

Results

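Cell cycle and DNA replication genes were followed in lists of open chromatin sites from HepG2, a cell line established from a human liver cancer. The set held 60 genes, fixed by name and split by the phase in which they are mainly known to act into 27 G1 genes, 16 S genes and 17 G2/M genes. All peaks whose nearest gene was a member were taken from 3 deposited lists. At least 1 peak was listed for 49 of the 60 members, and these 173 peaks were part of 56159 in the lists. Open chromatin was measured by FAIRE-seq, in which crosslinked chromatin is sheared and the DNA free of bound protein is recovered and sequenced. One culture received lentiviral particles with a scrambled small hairpin RNA (control), and the other received particles with a small hairpin RNA against NR2E3, an orphan nuclear receptor (NR2E3-depleted). Both groups were otherwise HepG2 cells in the same medium, each group had 1 library, and the depleted library came from 1 of the hairpins used in the study. The lists held the peaks found in both libraries (common), in the control alone (control-specific) and in the NR2E3-depleted library alone (depleted-specific). With 1 library per group there was no replicate check, and no test between the conditions was possible.

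The depth inferred from the peak scores was 24.6 M (mega) tags for the control and 19.7 M for the NR2E3-depleted library, if the scores are scaled to the peak caller's default. A tag is an aligned read, and the score of a peak is its tag number after scaling. One tag was worth 0.407 score units in the common and control-specific lists and 0.507 in the depleted-specific list. The common list thus carries the scale of the control library, and scores and tags given for common peaks are on that scale alone. All intervals below are 95% intervals that cover counting error only. Of 9 hepatocyte genes used to check the label, 5 had a promoter peak (APOA1, APOA2, SERPINA1, TF and HNF4A), against 0 of 5 marker genes of blood, endothelial and fibroblast cells, 3 of which had a distal peak. ALB and AFP, which define the lineage, had 7 and 3 distal peaks but no promoter peak. FGB had 2 distal peaks alone, and TTR had no peak. Of the other markers, PECAM1 had 8 distal peaks, and CD3E and COL1A2 had 1 each. Specific means that the peak was called in one library and not in the other. It does not give the signal of the other library, which was not analysed here. In bulk chromatin, a site open in more cells and a site more open in each cell cannot be told apart, and the share of cells in each phase was not measured.

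The cell cycle is driven by cyclins, which activate cyclin-dependent kinases (CDKs). In G1, cyclin D and cyclin E kinases inactivate the pocket proteins, of which RB1 is the best known, and this frees E2F transcription factors to switch on the genes of S phase. Origins of replication are licensed in G1 by the origin recognition complex, CDC6, CDT1 and the MCM helicase, and they fire in S phase. Many G2/M genes are switched on later through promoters that carry a cell cycle genes homology region (CHR) together with CCAAT boxes, bound by the MuvB complex and by NF-Y.

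Promoter sequences are shown for the 5 highest-scoring depleted-specific promoter peaks of members with an entry in the RefSeq promoter table, and for PCNA, whose common peak scored highest of all members and which was added after its values were seen. Each stretch holds the bases before a start annotated in that table that lie within the peak, on the strand of the gene, 5′ to 3′ (hg38). For ORC1, CCNB1, MCM7 and SKP2 this start differs from the one used for the distances in the peak lists. The whole MCM7 stretch lies downstream of its listed start, before the table's start at 100100529. Capitals mark matches on either strand to the E2F site (TTTGGCGC or TTTCCCGC), the CHR element (TTTGAA), the CCAAT box (CCAAT) and the GC box (GGGCGG), some of which overlap.
ORC1, chr1:52404424-52404673, minus strand, depleted-specific: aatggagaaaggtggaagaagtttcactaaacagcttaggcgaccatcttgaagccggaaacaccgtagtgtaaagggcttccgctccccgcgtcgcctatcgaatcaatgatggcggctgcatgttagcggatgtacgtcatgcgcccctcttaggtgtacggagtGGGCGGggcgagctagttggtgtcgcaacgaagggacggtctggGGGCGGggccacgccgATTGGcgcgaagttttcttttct
CCNB1, chr5:69166900-69167149, plus strand, depleted-specific: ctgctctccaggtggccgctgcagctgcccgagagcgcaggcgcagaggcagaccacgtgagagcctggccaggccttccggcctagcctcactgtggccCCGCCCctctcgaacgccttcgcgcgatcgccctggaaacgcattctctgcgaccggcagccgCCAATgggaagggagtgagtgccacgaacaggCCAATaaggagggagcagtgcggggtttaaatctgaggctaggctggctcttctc
MCM7, chr7:100100561-100100779, minus strand, depleted-specific: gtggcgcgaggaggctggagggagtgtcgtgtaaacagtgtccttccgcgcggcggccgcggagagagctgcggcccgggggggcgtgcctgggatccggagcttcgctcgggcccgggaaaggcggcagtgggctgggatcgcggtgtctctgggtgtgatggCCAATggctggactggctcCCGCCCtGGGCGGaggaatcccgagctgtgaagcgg
SKP2, chr5:36151861-36152110, plus strand, depleted-specific: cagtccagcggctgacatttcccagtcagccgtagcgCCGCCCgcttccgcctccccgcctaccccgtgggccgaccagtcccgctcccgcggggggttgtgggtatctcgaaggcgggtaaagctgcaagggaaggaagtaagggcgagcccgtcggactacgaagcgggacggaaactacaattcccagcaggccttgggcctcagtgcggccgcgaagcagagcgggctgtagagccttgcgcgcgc
CCNB2, chr15:59104935-59105145, plus strand, depleted-specific: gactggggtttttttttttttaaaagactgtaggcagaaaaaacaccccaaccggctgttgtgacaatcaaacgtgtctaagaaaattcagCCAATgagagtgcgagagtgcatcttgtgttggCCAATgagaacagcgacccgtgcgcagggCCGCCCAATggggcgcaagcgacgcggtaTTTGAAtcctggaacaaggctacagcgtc
PCNA, chr20:5126623-5126798, minus strand, common: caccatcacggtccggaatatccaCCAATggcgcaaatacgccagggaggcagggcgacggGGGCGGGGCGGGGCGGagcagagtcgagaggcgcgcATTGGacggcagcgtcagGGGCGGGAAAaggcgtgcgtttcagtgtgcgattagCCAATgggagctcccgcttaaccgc
CCNB2 held 3 CCAAT boxes, 1 GC box that overlapped a CCAAT box, and 1 CHR element downstream of them. CCNB1 held 2 CCAAT boxes and 1 GC box, with no CHR letters in this window. ORC1, MCM7 and SKP2 held no match to the E2F or CHR letters in the stretches shown. Variants of these letters were not searched, so sites of other spelling can be present. PCNA held 1 E2F site that overlapped a GC box, with 3 CCAAT boxes and 4 GC boxes in all.

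The first comparison asked how the promoters of the 60 members were divided between the lists. A promoter peak in at least 1 list was present for 39 members (65.0%, 51.6 to 76.9), against 28.3% of the 20020 protein-coding genes of the annotation. The difference was 36.7 percentage points (23.3 to 48.6). A common promoter peak was present for 25 members (41.7%, 29.1 to 55.1), against 14.6% of protein-coding genes. A depleted-specific promoter peak was present for 14 members (23.3%, 13.4 to 36.0), against 11.8%. A control-specific promoter peak was present for 3 members (5.00%, 1.04 to 13.9), against 3.69%. Promoter peaks were in the depleted-specific list alone for 12 members, where the background was 10.6%, and in the control-specific list alone for 1 member, AURKB, where the background was 2.69%. The remaining 23 of the 39 had promoter peaks in the common list alone, and CDKN1B, E2F1 and RBL2 had promoter peaks in 2 lists.

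Among genes that had any promoter peak, the division between the lists can be read apart from the number of open promoters. A common promoter peak was present for 25 of the 39 members (64.1%, 47.2 to 78.8), against 51.7% of the 5662 protein-coding genes with a promoter peak. The depleted-specific list alone held 12 of the 39 (30.8%, 17 to 47.6), against 37.4%. The control-specific list alone held 1 of the 39 (2.56%, 0.0649 to 13.5), against 9.50%. Depleted-specific promoter peaks outnumbered control-specific ones by 14 to 3 among members, a ratio of 4.67 (1.30 to 25.3), and by 2838 to 900 over all genes, a ratio of 3.15 (2.92 to 3.40). The interval of the members' ratio included the ratio over all genes.

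**Figure D1:**
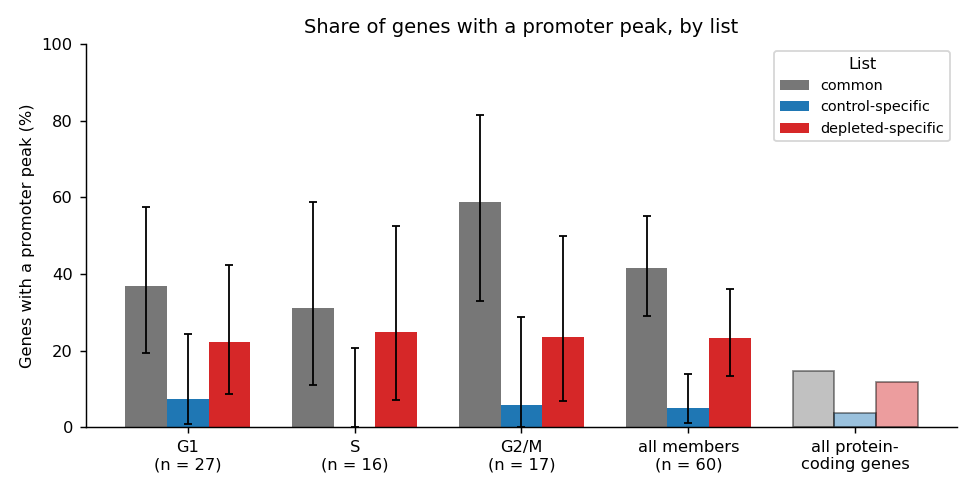
Bars give the percentage of genes with a promoter peak in each list, for the 3 phase groups, all 60 members and all 20020 protein-coding genes, and lines are exact 95% binomial intervals. Common promoter peaks were the most frequent kind in each phase group, and the intervals of the phase groups overlapped.

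By phase, a promoter peak in any list was present for 15 of 17 G2/M members (88.2%, 63.6 to 98.5), 9 of 16 S members (56.2%, 29.9 to 80.2) and 15 of 27 G1 members (55.6%, 35.3 to 74.5). These intervals overlapped. The common list accounted for 10 G2/M, 5 S and 10 G1 members. Depleted-specific promoter peaks were present for 4 G2/M members (23.5%, 6.81 to 49.9), 4 S members (25%, 7.27 to 52.4) and 6 G1 members (22.2%, 8.62 to 42.3). Control-specific promoter peaks were present for 1 G2/M member and 2 G1 members, and for 0 of 16 S members, where an exact interval reached 20.6%.

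In the G1 group, depleted-specific promoter peaks were listed for 3 of 6 CDK inhibitors, 2 of 3 pocket proteins and SKP2, and for 0 of 5 cyclins, 0 of 3 kinases and 0 of 8 E2F factors. The share of all protein-coding genes was 11.8%, and differences between these small role groups were not tested. The cyclin CCND1 had a depleted-specific peak 275 bp upstream of another annotated start, outside the listed promoter class. CDKN2C, which binds CDK4 and CDK6, had a peak at chr1:50968535-50968835 with a score of 7.60 (15 tags, 8.40 to 24.7), its centre 10 bp upstream of the transcription start site (TSS). CDKN2B, of the same inhibitor family, had a peak at chr9:22009296-22009596 with a score of 5.58 (11 tags), centred 133 bp upstream. CDKN1B, which inhibits cyclin E and cyclin A kinases, had a common peak 48 bp upstream of the TSS (6.51, 16 tags) and a depleted-specific peak at chr12:12716239-12716539, centred 881 bp upstream (6.59, 13 tags). The 2 CDKN1B peaks lay 833 bp apart, and a control-specific peak of 13 tags lay 706 bp further upstream. CDKN2D had a common promoter peak (8.13), CDKN1C had a control-specific distal peak alone, and CDKN2A had no peak.

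All 3 pocket proteins had a promoter peak, each in a different pattern. RB1 had a depleted-specific peak at chr13:48303629-48303929 (7.60, 15 tags), centred 32 bp downstream of the TSS. RBL1 had a common promoter peak (8.54, 21 tags). RBL2 had a depleted-specific peak at chr16:53433745-53434045 (6.08, 12 tags), centred 576 bp upstream of one listed TSS, and a control-specific peak 1670 bp away at chr16:53435415-53435715 (5.69, 14 tags), centred 54 bp upstream of another listed TSS. RBL2 was thus the member with specific promoter peaks in both libraries. The nearest control-specific or common peak to the RB1 peak lay 108452 bp away.

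SKP2, the substrate receptor of the ubiquitin ligase that destroys CDKN1B protein, had a depleted-specific peak at chr5:36151845-36152145 (9.63, 19 tags, 11.4 to 29.7), centred 48 bp upstream of the TSS. Among the E2F factors, E2F1, E2F3, E2F4 and E2F6 had common promoter peaks, and E2F3 was among the highest with a score of 9.76 (24 tags) at 228 bp upstream, chr6:20401501-20401801. E2F1 also had a control-specific promoter peak at chr20:33686925-33687225 (6.10, 15 tags), centred 690 bp upstream of the TSS and 479 bp from its common peak (9.35, 23 tags). CDC25A, a phosphatase that activates CDKs, CDK4 and CCND3 had promoter peaks in the common list only. CCND3 was the only 1 of 5 G1 cyclins with a promoter peak.

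In the S group, the licensing factors were divided between the common and the depleted-specific lists. Of 9 licensing genes, 3 had a common promoter peak (CDC6, MCM3 and MCM4) and 3 others had a depleted-specific one (ORC1, MCM5 and MCM7). Over all protein-coding genes these shares were 14.6% and 11.8%. ORC1, the largest subunit of the origin recognition complex, had the highest-scoring specific promoter peak of all members, at chr1:52404385-52404685 with a score of 12.2 (24 tags, 15.4 to 35.7), centred 64 bp upstream of the TSS. The nearest control-specific or common peak lay 196286 bp away. MCM7, a subunit of the replicative helicase, had a peak at chr7:100100561-100100861 (9.63, 19 tags), centred 69 bp downstream. MCM5, of the same helicase, had a peak at chr22:35399788-35400088 (6.59, 13 tags), centred 202 bp upstream. The common peak of MCM3 at chr6:52284698-52284998 had 30 tags (12.2), centred 106 bp upstream, and that of CDC6 at chr17:40287454-40287754 had 25 tags (10.2), centred 275 bp upstream. POLA1, the catalytic subunit of the polymerase that starts new strands, had a depleted-specific peak of 10 tags (5.07, 4.80 to 18.4) at chrX:24693459-24693759, centred 309 bp upstream, the weakest of the 14.

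PCNA, the sliding clamp of the replication fork and a marker of proliferation, had the highest common promoter peak of all members. It lay at chr20:5126498-5126798 with a score of 15.0 (37 tags, 26.1 to 51.0), centred 26 bp upstream of the TSS. A second common promoter peak at chr20:5119885-5120185 had 26 tags (10.6) and lay 77 bp upstream of another PCNA start. PCNA had no specific promoter peak, and 1 depleted-specific peak of 13 tags lay in intron 1, 1119 bp downstream of the TSS. Of the 4 genes for nucleotide supply, TK1 alone had a promoter peak, which was common (8.54, 21 tags).

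In the G2/M group, both B-type cyclins had depleted-specific promoter peaks, where the share of all protein-coding genes was 11.8%. CCNB1, the partner of CDK1 at entry into mitosis, had a peak at chr5:69166897-69167197 with a score of 11.2 (22 tags, 13.8 to 33.3), centred 37 bp downstream of the listed TSS. CCNB2 had a peak at chr15:59104935-59105235 (8.62, 17 tags), centred 61 bp upstream. Their kinase, CDK1, had a common promoter peak (5.29, 13 tags), as did WEE1, which inhibits CDK1, and CDC25B and CDC25C, which activate it. CDC25B was among the highest common peaks with a score of 10.2 (25 tags) at chr20:3786814-3787114, centred 192 bp downstream.

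The spindle checkpoint and chromosome genes had open promoters in all 6 cases, against 28.3% of protein-coding genes in any list. BIRC5 (survivin), a subunit of the chromosomal passenger complex, had a depleted-specific peak at chr17:78214064-78214364 (8.62, 17 tags, 9.90 to 27.2), centred 39 bp upstream. MAD2L1, which holds the anaphase-promoting complex in check, had a depleted-specific peak at chr4:120066673-120066973 (8.11, 16 tags), centred 25 bp downstream. BUB1, BUB1B, CDC20 and TOP2A had common promoter peaks. AURKB, the kinase of the same passenger complex as BIRC5, had a control-specific promoter peak at chr17:8210575-8210875 (7.32, 18 tags, 10.7 to 28.4), centred 150 bp upstream, and a depleted-specific peak of 10 tags 1955 bp from it in intergenic sequence. PLK1 and MYBL2 had common promoter peaks, and AURKA and FOXM1 had none under their own names.

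**Figure D2:**
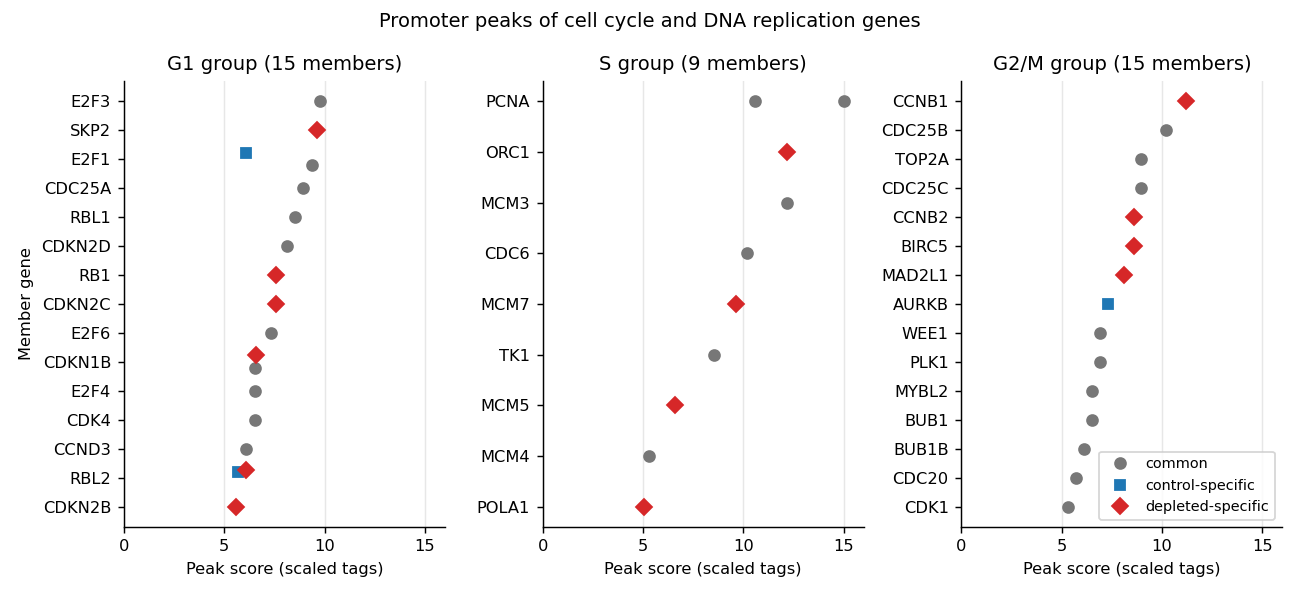
Each point is a promoter peak of a member, placed by its score in scaled tags and marked by its list, with the 39 members that have one split by phase group. PCNA reached 15.0 and ORC1 12.2, the highest common and the highest specific score. Scores of the depleted-specific list come from the shallower library.

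In score, the members' promoter peaks lay close to those of all genes. The 26 common promoter peaks had a median of 19 tags (score 7.73), against 17 tags (6.91) for all common promoter peaks. The 14 depleted-specific ones had a median of 15.5 tags (7.85), against 14 tags (7.10). The 3 control-specific ones had 14, 15 and 18 tags, against a median of 15 tags over all genes. A median of 19 tags has a Poisson interval of 11.4 to 29.7, so that single peaks were measured with low precision.

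The members' promoter peaks lay close to the start of the gene. Of the 26 common peaks, 25 were centred within 250 bp of the listed TSS (96.2%), against 83.5% of common promoter peaks of all genes. Of the 14 depleted-specific peaks, 11 were within 250 bp (78.6%), against 78.8% over all genes, and CDKN1B, RBL2 and POLA1 were the exceptions. The centre was upstream of the TSS for 24 of 26 common and 10 of 14 depleted-specific peaks. Over all genes it was upstream for 2840 of 3441 common and 2321 of 2838 depleted-specific promoter peaks. For the depleted-specific promoter peaks, the median distance to the nearest peak of the control library was 79775 bp, against 24730.5 bp over all depleted-specific promoter peaks, and 1 of the 14, that of CDKN1B, had one within 1000 bp (7.14%, 0.181 to 33.9), against 11.7% over all genes.

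**Figure D3:**
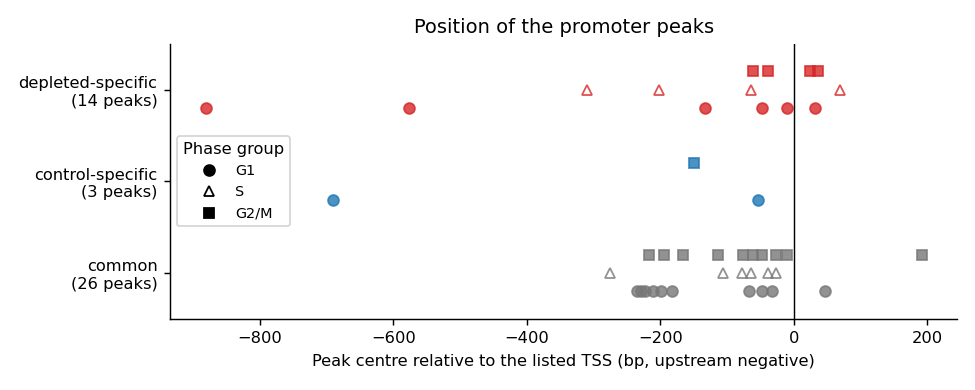
The 43 promoter peaks are placed by the distance of their centre from the listed TSS in bp, one row per list, with symbols for the phase groups. Common peaks lay between -275 and 192 bp, while 3 specific peaks (CDKN1B, E2F1 and RBL2) were centred more than 500 bp upstream.

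The location on the chromosomes differed between the lists. Chromosomes 2, 6, 14, 16, 17 and 20 held far more peaks per Mb than the others, and 22 of the 60 members lie on them (36.7%), against 27.5% of protein-coding genes. These chromosomes were chosen by their density of control-specific peaks. All 3 control-specific promoter peaks of members lay there, against 49.6% of those of all genes, so that 0 were left without these chromosomes. Of the 14 depleted-specific promoter peaks, 2 lay there (14.3%, 1.78 to 42.8), against 31.9% of depleted-specific promoter peaks of all genes, so that 12 members remained without them. Of the 25 members with a common promoter peak, 10 remained, and 49.3% of the common promoter peaks of all genes lay on these chromosomes. The part of the chromosome in these counts, and in the median distances to the control library given above, was not tested.

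Some promoter peaks were shared with a neighbouring gene. The TSS of another protein-coding gene lay within 1000 bp of the centre for 8 of the 43 promoter peaks (18.6%). The share over all promoter peaks was not counted, so this value is not a trait of the members. Among the depleted-specific ones these were ORC1, with PRPF38A 67 bp from the centre, SKP2 with LMBRD2 at 108 bp, and MCM7 with AP4M1 at 838 bp. Among the common ones they were CDC25C with FAM53C at 31 bp, CDC25B with CENPB at 224 bp, PCNA with CDS2 at 231 bp, TK1 with AFMID at 242 bp, and MCM4 with PRKDC at 725 bp. The lists do not tell which of the paired genes such a peak serves.

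The reverse also occurred, since a peak is listed under 1 gene only. Of the 60 members, 21 had no promoter peak under their own name, and 7 of these had a peak centred within 1000 bp of one of their annotated starts. AURKA, a mitotic kinase, had a common peak with 36 tags (14.6) centred 19 bp upstream of its start and listed under CSTF1. MCM2, a helicase subunit with no peak of its own, had a depleted-specific peak with 24 tags (12.2, the score of the ORC1 peak) centred 115 bp upstream of its start at chr3:127598145-127598445 and listed under TPRA1. TYMS, which makes the DNA precursor dTMP, had a depleted-specific peak with 16 tags (8.11) centred 125 bp downstream of a start, listed under TYMSOS. FOXM1, a transcription factor of G2/M genes, had a control-specific peak with 14 tags (5.69) centred 743 bp upstream of a start, listed under RHNO1. CCND1, MCM6 and RRM2 had depleted-specific peaks of 11 to 14 tags near an alternative start inside or close to the gene, and RRM2 had a common peak of 14 tags there too. These genes were named after their values were seen.

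When every annotated start was used, 46 of the 60 members had a peak within 1000 bp (76.7%, 64.0 to 86.6), against 40.8% of protein-coding genes. The common list then reached 27 members (45%) against 21.9%, the depleted-specific list 23 members (38.3%, 26.1 to 51.8) against 20.1%, and the control-specific list 9 members (15.0%, 7.10 to 26.6) against 8.17%.

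No peak was listed under the names of 11 members, which were CCND2, CCNE2, CDK2, CDKN2A, E2F5 and E2F7 of the G1 group, CCNA2, CDT1, MCM2 and TYMS of the S group, and FOXM1 of the G2/M group. The nearest peak to a start of E2F7, a repressor of the E2F family, was 171618 bp away. For CDK2, the kinase of cyclins E and A, it was 2583 bp away, in the common list under RAB5B. For CCNA2, the cyclin of S phase, it was 22719 bp away. That no peak was called says only that the signal did not pass the threshold at these depths.

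The members had 130 peaks outside the promoter class (distal peaks), of which 24 were common, 50 control-specific and 56 depleted-specific. The difference of 6 had an interval of -14.2 to 26.2. This interval and those of the distal ratios below take peaks as independent, although many were listed under the same gene. The ratio of depleted-specific to control-specific distal peaks was 1.12 (0.751 to 1.67), against 1.48 (1.45 to 1.51) over all genes, which lay within the members' interval. With peaks of at least 12 tags alone, the difference was turned round to -6, with 43 depleted-specific and 49 control-specific peaks, and the interval again included 0. With scores of at least 6.08 alone, there were 43 depleted-specific and 24 control-specific peaks, a difference of 19 (2.96 to 35.0). That score asks for 12 tags in the depleted-specific list and 15 in the control-specific list. The depleted-specific count was thus the same as with at least 12 tags, and only the control-specific count fell. At least 1 distal peak was listed for 32 members (53.3%), against 39.3% of protein-coding genes.

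The specific distal peaks were also split by phase. S members had 12 depleted-specific and 3 control-specific distal peaks, a ratio of 4 (1.08 to 22.1). G1 members had 30 and 29 (1.03, 0.600 to 1.79), and G2/M members had 14 and 18 (0.778, 0.358 to 1.66). The difference between the phases was not tested, the intervals overlapped, and each held the ratio over all genes, 1.48. The 12 depleted-specific distal peaks of S members were listed under RRM2 with 3, CDC6, MCM3 and RRM1 with 2 each, and MCM5, MCM6 and PCNA with 1 each. Those of RRM1 lay 33.9 and 21.7 kb upstream, in introns of another transcript. RRM1 and RRM2 encode the subunits of ribonucleotide reductase, and neither had a peak in the promoter class.

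The distal peaks were unevenly spread over the members. RBL1 had 20, of which 4 were common, 8 control-specific and 8 depleted-specific, with scores from 4.47 to 7.60. MYBL2, a transcription factor of late cell cycle genes, had 14, with 3 common, 8 control-specific and 3 depleted-specific. E2F6, a repressor of the E2F family, had 12, with 2 common, 8 control-specific and 2 depleted-specific. Its common peak at chr2:11499197-11499497 had the highest score of any common distal peak of a member (11.0, 27 tags), 33.2 kb upstream. PLK1, a mitotic kinase, had 11, with 6 control-specific and 5 depleted-specific. Peaks are listed under the gene with the nearest TSS, so that a distal peak can lie in a neighbouring transcript. Of the PLK1 peaks, only that at chr16:23682241-23682541 lay within the PLK1 transcript, and some peaks of RBL1 and MYBL2 lay in introns of neighbouring transcripts. Chromosome 20 carried 6 members (RBL1, E2F1, PCNA, AURKA, CDC25B and MYBL2) and 49 of the 130 distal peaks (37.7%). Over all genes, it had the highest density of control-specific peaks, 37.2 times the median of the chromosomes per Mb. The share of all distal peaks on chromosome 20 alone was not counted. On the 6 chromosomes with dense peaks lay 102 of the 130 (78.5%), against 74.5% over all genes. Without them the distal peaks were 16 depleted-specific and 7 control-specific, a difference of 9 (-0.400 to 18.4).

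E2F1 and E2F3 shared the next place with 7 distal peaks each, in opposite proportion. E2F1 had 5 control-specific and 1 depleted-specific distal peak, and E2F3 had 1 control-specific and 5 depleted-specific ones. E2F1 lies on chromosome 20, where the members together had 25 control-specific and 14 depleted-specific peaks of any class. E2F3 lies on chromosome 6, where the members together had 1 and 11. Whether the chromosome or the gene sets this contrast was not tested. The highest distal peak of all members was the control-specific peak at chr20:33702069-33702369, 15.8 kb upstream of E2F1 (12.6, 31 tags), at the transcription end site of a neighbouring transcript. The 5 depleted-specific peaks of E2F3 all lay in intron 1, between 1.03 and 44.5 kb downstream of the TSS, with 11 to 15 tags. CDK6 had 3 depleted-specific peaks in introns 2 and 3, of which chr7:92809697-92809997, 24.1 kb downstream of the TSS, had 22 tags (11.2), and CCND3 had 4 depleted-specific intronic peaks. These last 2 genes were named after their values were seen.

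**Figure D4:**
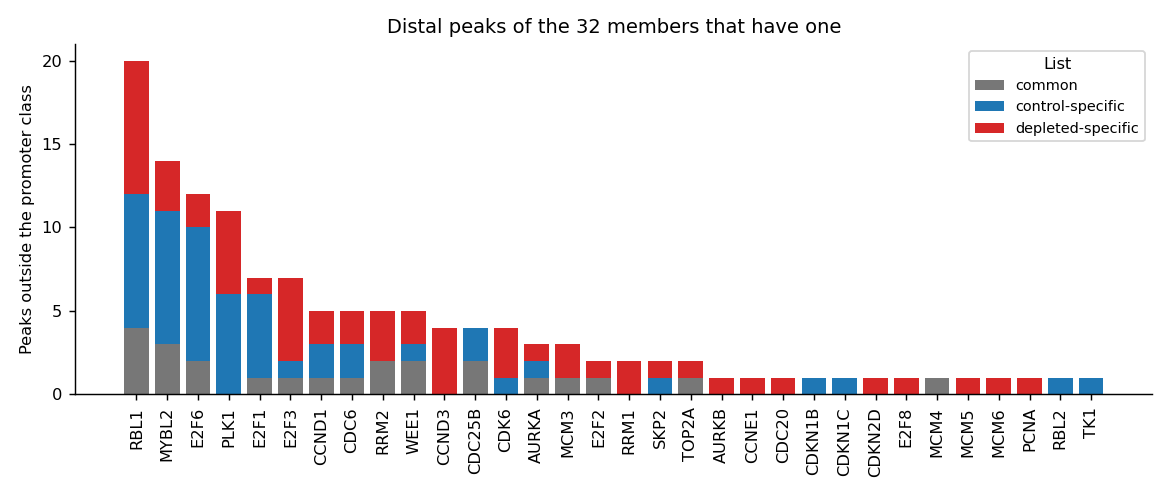
Stacked bars give the number of peaks outside the promoter class for the 32 members that have one, split by list. RBL1 leads with 20 peaks, and E2F1 and E2F3 have 7 each with opposite shares of control-specific and depleted-specific peaks.

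Some specific peaks of members lay near a peak of the other library. Of the 50 control-specific distal peaks, 14 (28.0%, 16.2 to 42.5) had a peak of the other library centred within 1000 bp, against 21.4% over all genes. Of the 56 depleted-specific ones, 10 had (17.9%, 8.91 to 30.4), against 15.2%. In CDC6, a control-specific peak in intron 2 (9.35, 23 tags) and a depleted-specific peak in exon 3 (7.60, 15 tags) were centred 375 bp apart.

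The sequences under the promoter peaks were searched for the motifs given above, over the whole peak and on both strands. The motif shares differed between the phase groups. The CHR element was present in 10 of 15 G2/M promoter peaks (66.7%, 38.4 to 88.2), 3 of 18 G1 peaks (16.7%, 3.58 to 41.4) and 0 of 10 S peaks (an interval up to 30.8%), against 11.4% of all 7179 promoter peaks. The intervals of the G2/M and S peaks did not overlap over the whole peak, and that of the G1 peaks overlapped both. Within 100 bp of the peak centre the CHR element was present in 6 of 15 G2/M peaks (40%, 16.3 to 67.7) and 0 of 10 S peaks (up to 30.8%), and these intervals overlapped, as did those of the RefSeq promoters (25.7 to 70.2 and 0.133 to 26.0). The G2/M peaks with a CHR element were those of AURKB, BIRC5, BUB1B, CCNB2, CDC20, CDC25C, CDK1, MAD2L1, TOP2A and WEE1. The E2F site was present in 3 of 10 S peaks (30%, 6.67 to 65.2), 3 of 18 G1 peaks (16.7%, 3.58 to 41.4) and 0 of 15 G2/M peaks (an interval up to 21.8%), against 3.25% of all promoter peaks, and these intervals overlapped. The S peaks with an E2F site were those of MCM3, MCM5 and PCNA, and the G1 peaks were those of CDC25A, CDKN2D and RB1.

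The CCAAT box was present in 26 of 43 member promoter peaks (60.5%, 44.4 to 75.0), against 44.7% of all promoter peaks, and in 8 of 10 S, 9 of 15 G2/M and 9 of 18 G1 peaks. The GC box was present in 33 of 43 (76.7%, 61.4 to 88.2), against 62.3%, and in 8 of 10 S, 12 of 15 G2/M and 13 of 18 G1 peaks. A CHR element together with a CCAAT box was present in AURKB, CCNB2, CDC20, CDC25C, CDK1 and TOP2A of the G2/M group. It was also present in CDKN2D and in the depleted-specific peak of RBL2, both of the G1 group. The share of all promoter peaks with this pair was not counted.

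By list, the motif shares of the members overlapped. The CHR element was present in 5 of 14 depleted-specific promoter peaks (35.7%, 12.8 to 64.9) and 7 of 26 common ones (26.9%, 11.6 to 47.8). The E2F site was present in 2 of 14 (14.3%, 1.78 to 42.8) and 4 of 26 (15.4%, 4.36 to 34.9). The GC box was present in 11 of 14 (78.6%) and 21 of 26 (80.8%), and the CCAAT box in 7 of 14 (50%) and 17 of 26 (65.4%). Over all depleted-specific and common promoter peaks, the CHR element was present in 10.7% and 10.9%, and the E2F site in 2.92% and 3.57%. There, the GC box was present in 64.6% and 65.2%, and the CCAAT box in 40.9% and 50.1%. A match gives the presence of the letters and not the binding of a factor.

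**Figure D5:**
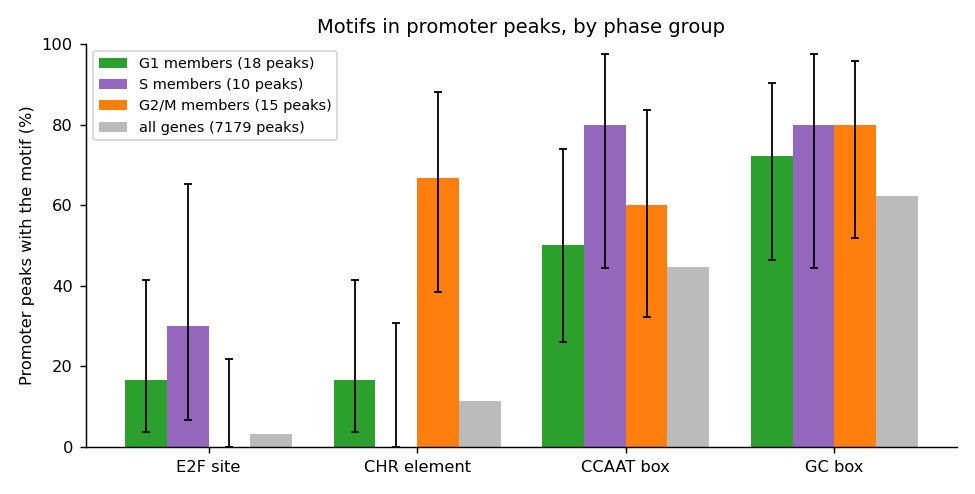
Bars give the percentage of promoter peaks that hold each motif, for members of the 3 phase groups and for all 7179 promoter peaks, and lines are exact 95% binomial intervals. The CHR element stood at 66.7% in G2/M peaks and 0 in S peaks, while the E2F site stood at 30% in S peaks and 0 in G2/M peaks.

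A further 99 cell cycle genes, not among the members, were counted in the same way. A promoter peak was present for 61 (61.6%, 51.3 to 71.2), with a common one for 40, a depleted-specific one for 20 and a control-specific one for 8, where the shares of all protein-coding genes were 28.3%, 14.6%, 11.8% and 3.69%. By role, these were 12 of 16 genes of licensing and origin firing, 11 of 23 of the replication fork, 12 of 21 regulators and 26 of 39 of mitosis and cohesin. KIF11, a motor of the mitotic spindle, had the highest depleted-specific promoter peak (14.7, 29 tags, 19.4 to 41.6) at chr10:92592852-92593152, 128 bp upstream of the TSS. TTK, a kinase of the spindle checkpoint, had the highest control-specific one (6.51, 16 tags), and CDC27, of the anaphase-promoting complex, the highest common one (11.0, 27 tags). ANAPC7, of the same complex, was the 1 gene with specific promoter peaks in both lists.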

How the data were processed

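The treatment tag of the labels put 1 FAIRE-seq library of HepG2 cells in the control group and 1 in the NR2E3-depleted group. Per the submitters' processing notes, Trimmomatic 0.39 and Bowtie2 2.4.5 were used with hg38, and the authors called and annotated peaks with HOMER; how common and specific peaks were separated is not stated. The deposited score of each peak is a scaled tag number, and the deposited distance runs in bp from the TSS to the peak centre, negative upstream. Scores were whole multiples of 1 step per list (100% of peaks, within 0.0051), which gave the tags per peak. The promoter class is HOMER's, and all other classes were taken as distal.

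The members and lists were chosen with earlier results of these data known. All 60 symbols matched protein-coding names of GENCODE 44. Named with values were members with a specific promoter peak, the 5 with the highest common promoter peak, the 5 with the most distal peaks (a tie gave 6) and PCNA; others are named from role counts or after their values were seen. Sequences came from the RefSeq promoter table (GRCh38.p14), in which 47 of 60 members had an entry. Intervals are exact Clopper-Pearson for shares, exact Poisson for tags and exact binomial for ratios. Those of differences between peak counts are normal approximations. Distances to other peaks are from centre to centre, and the 6 dense chromosomes were those with the most control-specific peaks per Mb. Step estimates and motif searches were tested on simulated data. The tools were scipy 1.17.1, pysam 0.24.0, pandas 2.3.3, numpy 2.4.6 and matplotlib 3.10.9 under Python 3.11.15. Alternatives covered the promoter definition, the score threshold, merging, sharing distance, background, motif window and phase groups; those with at least 12 tags, and the promoter counts without the dense chromosomes, were chosen after seeing the data. One gene of the marker list is not reported here.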

Additional observations from a re-analysis of the deposited data

How the results depend on the processing

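No paired analysis was possible because there was a single library of each kind, and for the same reason no replicate could be left out. The promoter counts of specific peaks depended on how a promoter was defined. Members with a depleted-specific promoter peak numbered 24 within 3000 bp of the listed TSS and 23 within 1000 bp of any annotated TSS, against 14 by the listed class. Members with a control-specific one numbered 5 within 1000 bp of the listed TSS, 11 within 3000 bp and 9 within 1000 bp of any annotated TSS, against 3. Without the 6 dense chromosomes, 0 members had a control-specific and 10 a common promoter peak, against 3 and 25, with fewer members considered. The difference in specific distal peaks was turned round to -6 with at least 12 tags, against 6 for all peaks. In 41 other results under alternatives, the value moved by less than its interval, or a count stayed within 1.5 times. Among these 41 was a distal difference of 19 (2.96 to 35.0) with scores of at least 6.08, which lay within the interval of all peaks (-14.2 to 26.2) although its own interval left out 0. That cut is unequal in tags, at 12 in the depleted-specific list and 15 in the control-specific list. Depth limits single peaks, whose medians are 12 to 16 tags over the lists, and peaks below the calling threshold were not analysed here.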

Other observations

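The RefSeq promoter sequences, which run from 250 bases before to 50 after each start and do not depend on a peak, held the motifs in a like order. Of 68 promoters of 47 members, the E2F site was present in 8 of 19 S promoters (42.1%, 20.3 to 66.5), 5 of 28 G1 promoters (17.9%) and 0 of 21 G2/M promoters (an interval up to 16.1%), against 2.27% of 35116 promoters in the table. The CHR element was present in 10 of 21 G2/M promoters (47.6%, 25.7 to 70.2), 2 of 28 G1 promoters (7.14%) and 1 of 19 S promoters (5.26%), against 15.2%. Promoters of 1 gene overlap, so these counts are not of independent sequences.

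The median GC content of the members' promoter peaks was 64.1% for common peaks, against 61.8% over all genes, 64.1% for depleted-specific peaks, against 63.8%, and 51.2% for the 3 control-specific peaks (AURKB, E2F1 and RBL2), against 57.5%. RBL2 had the lowest value of any member promoter peak, 41.5% in its depleted-specific peak, and MYBL2 the highest, 75.7%.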
